A study of Mus musculus with 4 samples.

Results

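Accessible chromatin at the interleukin genes and the genes of their receptors was followed across the cell types of inguinal white adipose tissue (iWAT). The genes were taken as all protein-coding mouse genes whose symbol begins with Il and a number, which gave 82 of the 21951 protein-coding genes in the annotation. Of these, 68 carried at least 1 accessible peak on the gene body or in the 2000 bases upstream, as did 17196 protein-coding genes in all, and together they held 455 of 189598 peaks. By role they were 38 ligands, 38 receptor chains, 5 inhibitors or decoys and 1 enzyme, of which 26, 36, 5 and 1 had a peak. No peak of the matrix lay on the other 14, namely Il3, Il5, Il9, Il17a, Il17c, Il17f, Il22, Il25, Il1f5, Il1f6, Il1f8, Il1f10, Il11ra2 and Il22ra1, and no value is given for them.

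Interleukins are secreted signals by which immune, stromal and epithelial cells act on each other, and each works through a receptor built of a ligand-specific chain and, often, a shared chain such as the common gamma chain, gp130 or the IL-1 receptor accessory protein. Soluble or non-signalling receptors (Il1r2, Il13ra2, Il22ra2), a receptor antagonist (Il1rn) and a binding protein (Il18bp) take up ligand or receptor without passing on the signal. In adipose tissue, IL-33 from stromal cells is known to act on innate lymphoid cells and regulatory T cells that carry its receptor ST2, the product of Il1rl1, and IL-4 and IL-13 are known for their effects on macrophages and progenitors.

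Single-nucleus ATAC-seq, in which a transposase cuts open chromatin in each nucleus, had been run on iWAT of male C57BL/6 mice 8 weeks of age. There were 7 groups of 3 mice. The day0RT mice stayed at 22 °C, and the day1C, day3C and day7C mice were kept at 6.5 °C for 1, 3 or 7 days. The day1CL, day3CL and day7CL mice were given the beta3-adrenergic agonist CL-316,243 (CL) at 1 mg/kg over as many days, at 22 °C per the study. The 32552 nuclei, 1111 to 2021 per mouse, came with an annotation of mouse, group and 12 cell types. Matrix entries, each marking a peak as open in a nucleus, were summed per gene, mouse and cell type. Levels are given as counts per 1000000 entries on genes (CPM), as mean ± SD over mice, and fewer nuclei open at a gene cannot be told apart from weaker signal per nucleus.

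The deposited cell types were set against marker lists. The lists of B cells, macrophages, dendritic cells, endothelial cells and beige adipocytes were highest in the clusters of those names, and the beige list (Ucp1, Cidea, Ppargc1a and Prdm16) summed to 1007 ± 121 CPM in beige (n = 19 mice) and 592 ± 66.1 CPM in white adipocytes (n = 21). The T cell list stood at 1076 ± 164 CPM in the cluster named T cell, 1290 ± 142 CPM in CD8 and 1288 ± 220 CPM in CD4 T cells. In macrophages the macrophage list (386 ± 85.25 CPM, n = 21) was below the endothelial (519 ± 111 CPM), dendritic (472 ± 130.5 CPM) and adipocyte lists (414 ± 135 CPM). Sums of different lists also depend on the peaks of their genes and do not rank the lists. Dendritic cells, the next cluster for the macrophage list, had 194 ± 84.8 CPM. The skeletal muscle and mural lists were highest in the clusters named VSMC and APC2. The cluster named VSMC had 146 ± 57.7 CPM over 5 mural markers and 1372 ± 248 CPM over 6 skeletal muscle markers (n = 10). The cluster named APC2 had 702 ± 117 CPM over the mural markers and 232 ± 66.1 CPM over 5 progenitor markers (n = 19), whereas APC1 had 257 ± 114 and 943 ± 212 CPM (n = 20). All clusters keep their deposited names here, without a claim on the cells in them. Markers were not at 0 elsewhere: the B cell list stood at 1318 ± 85.0 CPM in B cells and 114 ± 27.2 CPM in white adipocytes, and the adipocyte list at 1614 ± 184 CPM in white adipocytes and 195 ± 19.4 CPM in B cells.

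**Figure D1:**
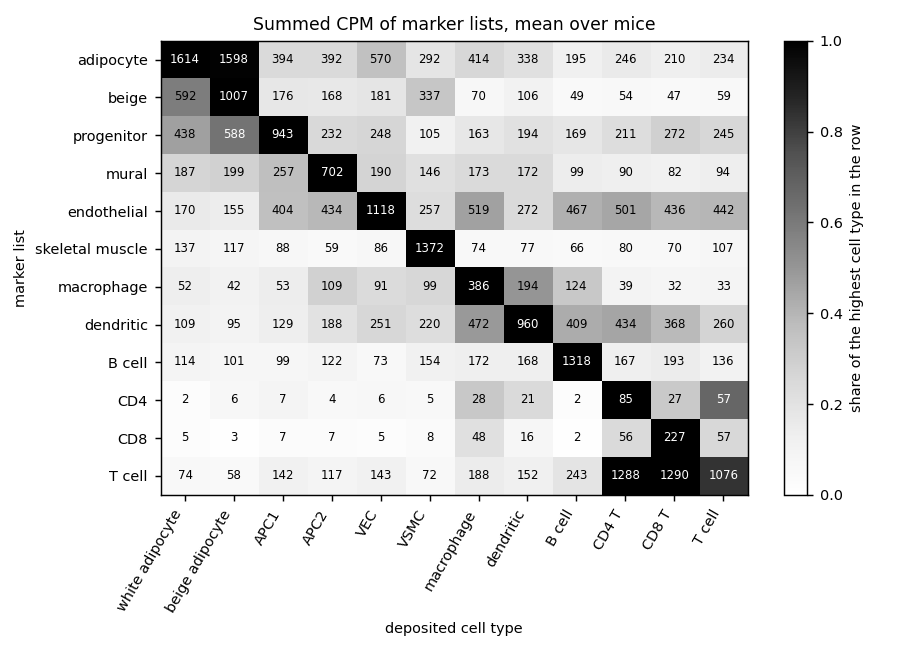
Summed CPM of each marker list in each deposited cell type, as the mean over mice. The skeletal muscle list is highest in the cluster named VSMC (1372 CPM) and the mural list in the cluster named APC2 (702 CPM).

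Each library is the nuclei of 1 cell type in 1 mouse, and libraries of at least 10 nuclei were used. They held up to 860 nuclei and from 6689 to 2862029 entries on genes, so that a single entry was worth 0.349 CPM in the deepest and 149 CPM in the shallowest. Barcode sequences found in more than 1 mouse numbered 4218.

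Of the 455 member peaks, 103 (22.6%) lay at least in part within 2000 bases of the start of their gene, against 17.3% of all peaks on genes. Of the member peaks, 46 also counted for a neighbouring gene and 15 members shared at least 1 peak. Il17rc shared 3 of its 4 peaks with Il17re and Creld1, and Il17rb and Il4i1 shared all of theirs. Il11ra1 shared peaks with 6 other genes and has near-identical copies in the mouse genome, and its values are uncertain.

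The following stretches of 300 bases about the centre of a peak (mm10, plus strand, read from the RefSeq copy of GRCm38.p6) are shown because each is the member peak with the highest CPM in the cell type for which the gene is described. Capitals mark matches on either strand to 1 of 7 short motifs, which may overlap. AP-1 was searched as TGANTCA, the STAT motif as TTCNNNGAA, and NF-kB as GGGA and CC around 4 bases of any kind. The letters of the GATA factors were AGATAA, of RUNX factors TGTGGTT, of nuclear receptors AGGTCA and of ETS factors CCGGAA. The first lies in an intron of Il33 at chr19:29948291-29948590 (51.6 CPM in APC1, 25.4 CPM in APC2) and held no match. The second lies in an intron of the decoy receptor Il1r2 at chr1:40094709-40095008 (57.0 CPM in APC1, 9.05 CPM in APC2) and held a RUNX match.
Il33: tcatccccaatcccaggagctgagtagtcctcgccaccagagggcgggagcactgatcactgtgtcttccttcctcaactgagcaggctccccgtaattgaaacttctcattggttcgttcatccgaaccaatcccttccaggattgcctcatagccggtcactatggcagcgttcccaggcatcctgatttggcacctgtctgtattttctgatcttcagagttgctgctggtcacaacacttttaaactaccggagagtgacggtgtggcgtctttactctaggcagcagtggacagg
Il1r2: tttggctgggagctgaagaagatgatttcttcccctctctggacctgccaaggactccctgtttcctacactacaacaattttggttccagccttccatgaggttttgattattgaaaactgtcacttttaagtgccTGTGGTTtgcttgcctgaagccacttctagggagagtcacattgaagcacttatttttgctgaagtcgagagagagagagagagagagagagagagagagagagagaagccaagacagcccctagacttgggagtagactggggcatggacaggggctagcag
The next pair are peaks of ligands. That of Il34, in an intron at chr8:110794573-110794872 (57.3 CPM in APC2, 30.7 CPM in VEC), held 1 NF-kB match. That of Il13, upstream of the start at chr11:53635919-53636218 (19.2 CPM in white adipocytes, 8.65 CPM in dendritic cells), held 2 NF-kB matches and 1 AP-1 match.
Il34: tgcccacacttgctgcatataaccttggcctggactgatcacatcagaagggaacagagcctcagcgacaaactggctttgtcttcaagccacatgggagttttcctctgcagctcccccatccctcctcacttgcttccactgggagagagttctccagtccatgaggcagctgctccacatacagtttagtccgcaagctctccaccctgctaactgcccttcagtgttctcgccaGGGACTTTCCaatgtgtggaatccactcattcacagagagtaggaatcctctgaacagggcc
Il13: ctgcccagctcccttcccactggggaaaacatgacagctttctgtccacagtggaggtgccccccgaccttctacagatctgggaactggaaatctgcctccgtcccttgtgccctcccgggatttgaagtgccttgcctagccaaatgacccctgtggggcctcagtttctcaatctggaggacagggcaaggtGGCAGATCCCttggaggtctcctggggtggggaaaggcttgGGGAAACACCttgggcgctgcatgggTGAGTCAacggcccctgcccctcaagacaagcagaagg
The last 3 are peaks of 2 receptors and 1 ligand. That of Il5ra at chr6:106738326-106738625 (47.3 CPM in B cells, 10.1 CPM in macrophages) takes in an exon and held 1 GATA and 1 nuclear receptor match. That of Il20rb, in an intron at chr9:100460215-100460514 (96.2 CPM in CD8 and 79.4 CPM in CD4 T cells), held 1 STAT and 1 RUNX match. The peak upstream of Il12b at chr11:44398922-44399221 (28.5 CPM in dendritic cells, 10.0 CPM in VEC) held 2 NF-kB matches and 1 ETS match.
Il5ra: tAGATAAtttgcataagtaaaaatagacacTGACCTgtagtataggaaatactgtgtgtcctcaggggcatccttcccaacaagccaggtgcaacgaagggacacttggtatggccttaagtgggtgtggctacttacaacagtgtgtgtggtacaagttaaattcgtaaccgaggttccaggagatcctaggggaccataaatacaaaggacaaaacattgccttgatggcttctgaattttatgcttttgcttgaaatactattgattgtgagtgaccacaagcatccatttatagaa
Il20rb: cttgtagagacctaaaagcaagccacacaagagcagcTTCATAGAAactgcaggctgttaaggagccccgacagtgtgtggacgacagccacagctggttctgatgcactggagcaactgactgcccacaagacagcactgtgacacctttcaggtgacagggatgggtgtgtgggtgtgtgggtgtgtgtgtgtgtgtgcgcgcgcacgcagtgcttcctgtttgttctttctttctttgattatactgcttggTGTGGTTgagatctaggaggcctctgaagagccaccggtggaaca
Il12b: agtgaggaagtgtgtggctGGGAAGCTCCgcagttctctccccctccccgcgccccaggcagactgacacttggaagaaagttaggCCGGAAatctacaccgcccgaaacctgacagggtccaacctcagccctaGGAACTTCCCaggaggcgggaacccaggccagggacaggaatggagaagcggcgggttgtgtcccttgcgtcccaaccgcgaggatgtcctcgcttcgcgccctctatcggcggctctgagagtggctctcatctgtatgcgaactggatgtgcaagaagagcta
Over the 455 member windows, the NF-kB letters occurred in 23.3% and the RUNX letters in 11.6%, against 16.9% and 8.99% of the windows of all 189598 peaks. The others were AP-1 in 11.9% against 12.3%, STAT in 10.8% against 10.9%, GATA in 11.4% against 13.4%, the nuclear receptor letters in 18.5% against 21% and ETS in 6.81% against 5.78%. Such a match describes the letters in a window and not binding.

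The levels of the members across the 12 cell types are a description, because the nuclei had been clustered on the same entries. Dendritic cells had the highest mean of 14 (20.6% against 9.69%) of the 68 members, where the second percentage is the share of all genes with a peak that were highest in that cell type. B cells had the highest mean of 9 (13.2% against 10.7%), APC1 of 8 (11.8% against 8.88%), T cells of 8 (11.8% against 5.96%), white adipocytes of 7 (10.3% against 7.34%) and VSMC of 3 (4.41% against 12.9%). Members highest in dendritic cells led by unlike margins. Il15 was 2.36 times the next cell type and above it in 17 of 17 mice. Il2ra, Il15ra and Il18bp were at 1.02, 1.02 and 1.01 times the next one. Il13 was above the next in 7 of 17 mice and Il21 in 1 of 17. For all members but Il5ra the range over mice in the highest cell type overlapped that in the next one. For Il5ra the lowest B cell value (91.5 CPM) lay just above the highest dendritic one. That value came from a day1CL library with 4 entries from 66 nuclei. The share of all genes without such an overlap was not counted.

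**Figure D2:**
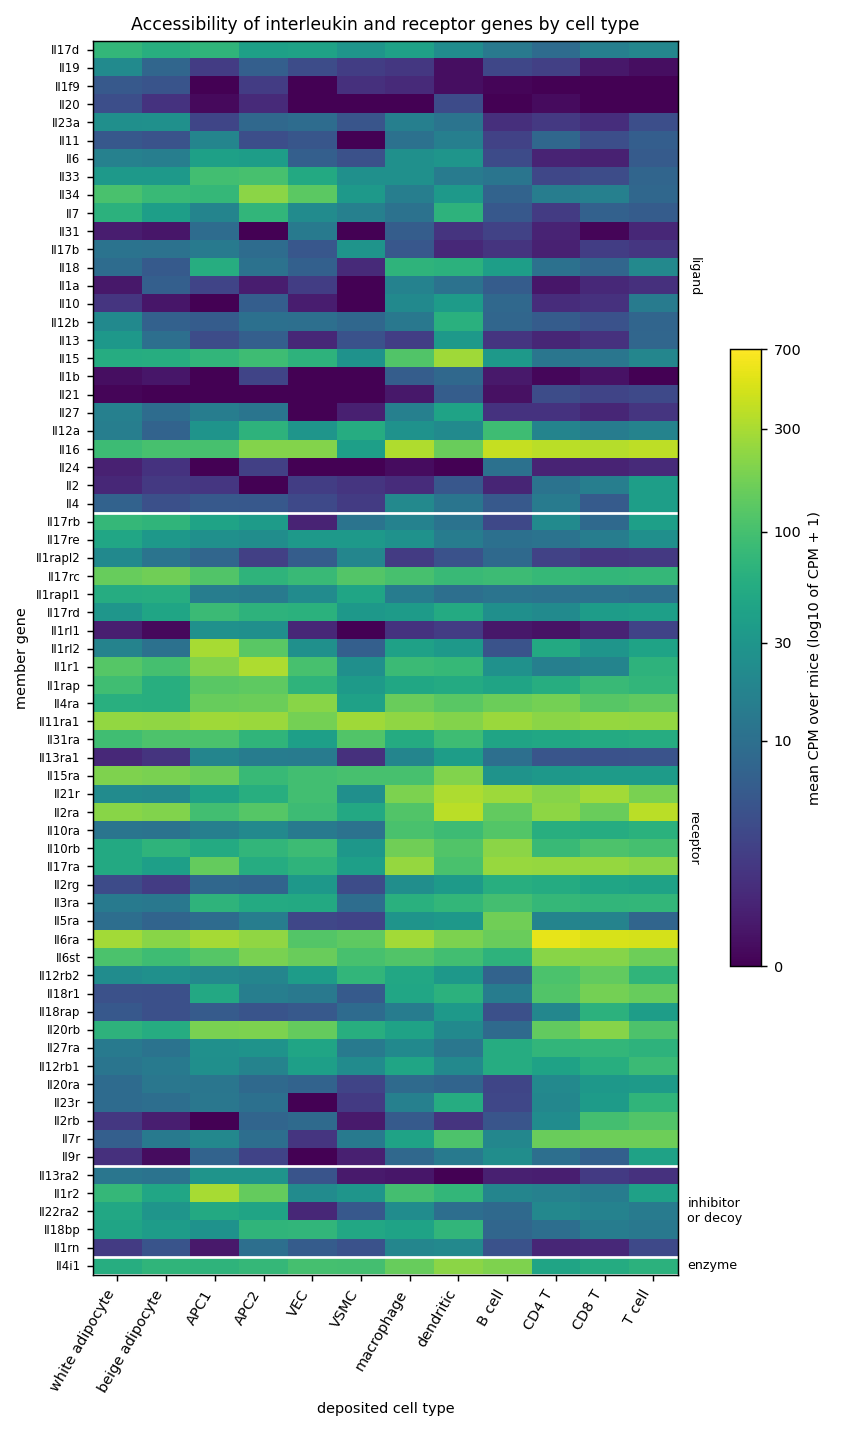
Mean CPM over mice of the 68 members with a peak (rows, by role) in the 12 deposited cell types (columns), coloured on a log10 scale of CPM + 1. Among ligands Il34 and Il33 are highest in APC2 and Il15 in dendritic cells, and among receptors Il6ra is highest in CD4 T cells.

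Among the ligands, the alarmin gene Il33 had its highest levels in APC2 and APC1. It stood at 104 ± 45.3 CPM in APC2 (32.8 to 200.1, median 94.6, n = 19) and 96.1 ± 50.0 CPM in APC1 (0 to 218, median 87.8, n = 20), and the 2 ranges overlapped. White adipocytes had 33.6 ± 8.55 CPM (n = 21) and CD4 T cells 2.99 ± 3.56 CPM (n = 20). Il34, a ligand of the CSF-1 receptor, was likewise highest in APC2 (226 ± 83.1 CPM), followed by VEC (134 ± 138 CPM, n = 15) and white adipocytes (106 ± 29.0 CPM), with 7.15 ± 9.76 CPM in B cells. Il6, which signals through gp130, was at 40.5 ± 25.4 CPM in APC1 and 37.3 ± 22.1 CPM in APC2. Il11, another gp130 ligand, had 18.9 ± 29.3 CPM in APC1 on 19 entries.

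Il15, which sustains natural killer and memory T cells, was highest in the 2 myeloid clusters. It reached 277 ± 76.0 CPM in dendritic cells (132 to 417, median 296, n = 17), 117 ± 45.3 CPM in macrophages (n = 21) and 32.7 ± 6.82 CPM in B cells. Il12b, the p40 subunit that IL-12 and IL-23 share, was at 62.9 ± 41.3 CPM in dendritic cells, 21.4 ± 6.72 CPM in white adipocytes and 12.9 ± 14.1 CPM in macrophages. Its partner Il12a (p35) was instead highest in B cells at 91.5 ± 16.3 CPM (45.7 to 114, n = 21), with 67.7 ± 30.2 CPM in APC2. Il27 was at 43.8 ± 35.9 CPM in dendritic cells and the anti-inflammatory Il10 at 35.3 ± 25.6 CPM in dendritic cells and 21.4 ± 17.9 CPM in macrophages. Il18 was about level between macrophages (69.7 ± 41.7 CPM) and dendritic cells (66.1 ± 37.6 CPM). The inflammatory ligands Il1a and Il1b had few entries: 17.4 ± 14.0 CPM for Il1a in macrophages on 23 entries, and 8.10 ± 11.1 CPM for Il1b in dendritic cells on 14 entries, with 10 of 17 libraries at 0.

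Some ligands best known from lymphoid or epithelial cells had entries in white adipocytes. Il13, a type 2 cytokine, stood at 31.7 ± 5.74 CPM there (20.1 to 45.5, median 31.1, n = 21), above 0 in every mouse, against 1.03 ± 2.63 CPM in CD4 T cells and 1.75 ± 1.87 CPM in B cells. Dendritic cells had 33.9 ± 39.0 CPM (0 to 132), on 40 entries and with 6 of 17 libraries at 0. Il19, of the IL-10 family, was at 21.9 ± 10.5 CPM in white and 7.61 ± 8.45 CPM in beige adipocytes. Il7, the survival factor of lymphocytes, was at 73.2 ± 35.8 CPM in APC2, 68.5 ± 26.1 CPM in dendritic cells and 66.7 ± 14.5 CPM in white adipocytes, differences below the SD, and at 2.16 ± 2.54 CPM in CD4 T cells. Il23a, the IL-23 subunit, had 25.2 ± 8.84 CPM in white and 25.6 ± 13.0 CPM in beige adipocytes, and Il17d 76.4 ± 15.3 CPM in white adipocytes.

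Of the ligands that T cells are known to make, Il2 and Il4 were highest in the cluster named T cell, at 38.2 ± 23.4 and 37.9 ± 25.3 CPM (n = 20). Il21 had 16 entries in CD4 T cells (3.64 ± 4.64 CPM). Its mean was higher in dendritic cells (5.88 ± 24.2 CPM), but above CD4 T cells in 1 of 17 mice. Il16, whose product attracts CD4+ cells, was open in most clusters, from 397 ± 42.6 CPM in B cells to 39.5 ± 32.1 CPM in VSMC.

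Of the receptors of the IL-1 family, Il1rl1 (ST2) had few entries. It was at 26.5 ± 32.7 CPM in APC1 on 34 entries and 25.0 ± 22.4 CPM in APC2 on 25 entries, with 10 of 20 and 6 of 19 libraries at 0. The shared accessory chain Il1rap was at 136 ± 45.1 CPM in APC2 and 129.9 ± 69.0 CPM in APC1. The IL-1 receptor Il1r1 was highest in APC2 (311 ± 62.9 CPM), then APC1 (206 ± 85.4 CPM) and white adipocytes (122 ± 19.7 CPM). Il1rl2, the receptor of the IL-36 ligands, reached 293 ± 126 CPM in APC1 (median 304) and 129 ± 45.5 CPM in APC2, with 4.29 ± 3.49 CPM in B cells. The IL-18 receptor chains Il18r1 and Il18rap were highest in CD8 T cells. Il18r1 was at 175 ± 35.8 CPM there, 150.1 ± 39.7 CPM in T and 118 ± 24.8 CPM in CD4 T cells. Il18rap was at 66.8 ± 44.0 CPM in CD8 T cells and lowest in B cells (3.91 CPM). The neuronal relatives Il1rapl1 and Il1rapl2 were at 56.3 ± 9.03 and 21.7 ± 10.7 CPM in white adipocytes.

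Among the receptors of the gamma chain family, Il7r and Il2rb were highest in the T cell clusters. Il7r was at 165 ± 44.1, 165 ± 32.3 and 155 ± 50.2 CPM in T, CD8 and CD4 T cells, values that differ by less than their SD. Il2rb, the signalling chain for IL-2 and IL-15, was at 119 ± 35.8 CPM in T cells and 98.0 ± 17.7 CPM in CD8 T cells, against 23.3 ± 19.2 CPM in CD4 T cells. The common chain Il2rg was at 59.5 ± 8.68 CPM in B cells, Il21r at 312 ± 113 CPM in dendritic and 284 ± 42.4 CPM in CD8 T cells, and Il9r at 43.0 ± 30.6 CPM in T cells. The high-affinity IL-2 receptor chain Il2ra had 358 ± 74.8 CPM in dendritic cells (182 to 452), 353 ± 91.0 CPM in T cells (242 to 589.5) and 217 ± 24.4 CPM in white adipocytes. Its neighbour on chromosome 2, Il15ra, which presents IL-15, had 200.3 ± 100.4 CPM in dendritic cells and 197 ± 23.9 CPM in white adipocytes.

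The receptors of type 2 cytokines differed in their cell types. Il5ra stood at 166 ± 34.0 CPM in B cells (91.5 to 227, median 169.9, n = 21), above the 32.0 ± 31.5 CPM of dendritic cells (0 to 91.1, n = 17). Il4ra was highest in VEC (217 ± 114 CPM) and Il13ra1 in dendritic cells (37.6 ± 54.2 CPM on 35 entries). The IL-3 receptor chain Il3ra was highest in B cells (97.8 ± 12.4 CPM).

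Of the IL-6 and IL-12 receptors, Il6ra was highest in CD4 T cells (552 ± 60.6 CPM), CD8 T cells (467 ± 90.6 CPM) and T cells (464 ± 95.7 CPM), had 280.3 ± 44.5 CPM in white adipocytes, and was lowest in VEC (121 ± 63.3 CPM). The gp130 gene Il6st was at 220.1 ± 38.8 CPM in CD4 T cells, Il12rb2 at 146 ± 28.0 CPM in CD8 T cells, Il12rb1 at 86.0 ± 31.4 CPM and Il23r at 71.2 ± 46.4 CPM in T cells, and Il27ra at 76.4 ± 18.2 CPM in CD8 T cells. The uncertain Il11ra1 was between 179.5 ± 94.6 CPM in VEC and 276 ± 67.6 CPM in VSMC. Of the other receptors, the IL-10 chains Il10rb (224 ± 21.8 CPM) and Il10ra (122 ± 17.2 CPM) were highest in B cells, Il20rb in CD8 T cells (210 ± 31.9 CPM, against 8.57 ± 3.71 CPM in B cells), Il17ra in B cells (255 ± 42.8 CPM) and macrophages (248 ± 67.5 CPM), Il17rc in beige (167 ± 35.8 CPM) and white adipocytes (150.5 ± 26.8 CPM), Il17re in white adipocytes (47.0 ± 18.3 CPM) and Il17rd in APC1 (85.9 ± 38.6 CPM).

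Among inhibitors and decoys, Il1r2 was at 299 ± 90.2 CPM in APC1 (164 to 539, median 297, n = 20) and 148 ± 70.3 CPM in APC2, then 97.0 ± 37.3 CPM in macrophages. Il13ra2 and Il22ra2 were also highest in APC1 (28.7 ± 30.3 and 52.0 ± 41.9 CPM), the latter with 49.4 ± 16.9 CPM in white adipocytes. The antagonist Il1rn had 20.7 ± 25.1 CPM in dendritic cells and Il18bp 73.9 ± 46.4 CPM in dendritic cells and 73.1 ± 67.7 CPM in VEC. The enzyme Il4i1, an amino acid oxidase of antigen-presenting cells, was at 224 ± 83.8 CPM in dendritic cells and 199 ± 21.3 CPM in B cells.

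Sums over a gene grow with the length of its peaks, so genes were compared with each other per kb of peak. On that scale the highest members were Il17rc in white (41.3 CPM per kb) and beige adipocytes (45.7 CPM per kb), Il1rl2 in APC1 (61.7 CPM per kb), Il3ra in APC2, B cells, dendritic cells and macrophages (44.1, 80.5, 63.0 and 51.5 CPM per kb), Il7r in CD4 and CD8 T cells (65.7 and 69.8 CPM per kb) Il2rb in T cells (81.6 CPM per kb), Il4ra in VEC (48.4 CPM per kb) and Il17b in VSMC (43.4 CPM per kb).

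To ask how related cell types differed within the same mice, 5 pairs of cell types were compared with edgeR's quasi-likelihood test, with the mouse as a block and Benjamini-Hochberg adjustment over all genes tested. Fold changes are on the log2 scale, first cell type over second. Since the clusters were defined on these entries, the tests are not independent of the cell types. The filter on low counts can also keep a gene through the cell type where it is high, which favours that direction. This may apply to members at low levels in the other cell type, such as Il13 in beige adipocytes. Other such members are Il2rb, Il5ra and Il12a in CD4 T cells and Il20rb, Il12rb2, Il18r1 and Il7r in B cells. The adjusted p of such members carries this limit.

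Most members that differed between beige and white adipocytes were lower in beige. In 19 mice with both, 29 members were tested and 13 called (30.4% of all genes tested were called). Of these, 12 were lower in beige (15.4% of all genes) and 1 was higher (15.0%), and the median log2 fold change was -0.20 over the members and 0.01 over all genes. The ligands Il13 and Il7 had the largest differences. Il13 had 10 ± 9.21 against 31.8 ± 6.02 CPM (-1.42, SE 0.18, adjusted p = 9.0e-11), lower in 18 of 19 mice, and Il7 had 38 ± 27.9 against 67.4 ± 12 CPM (-0.93, SE 0.12, adjusted p = 8.8e-10), lower in 17 of 19. In beige adipocytes, where a single entry was worth at least 1.8 CPM, the Il13 level rested on few entries. Il13 was not tested in libraries of at least 30 nuclei, in nuclei with at least 2000 entries or with promoter peaks only. The decoy Il1r2 (-0.77, SE 0.11) and the accessory chain Il1rap (-0.56, SE 0.11) were lower too, as were Il17re (-0.51, SE 0.13), Il18bp (-0.47, SE 0.13), Il34 (-0.38, SE 0.10), Il20rb (-0.34, SE 0.11), Il6ra (-0.34, SE 0.07) and Il1r1 (-0.32, SE 0.09). Il6st (-0.25, SE 0.09) and Il2ra (-0.20, SE 0.07) were lower by little. The IL-10 receptor chain Il10rb had 69.5 ± 38.9 (0 to 172) against 51.7 ± 9.12 CPM (0.39, SE 0.11, adjusted p = 0.00278), higher in 12 of 19 mice. Il10rb and Il17re were not tested with the peaks that count for no other gene. Without the day7C mice 8 of 27 members tested were called, and the share of all genes called then is not given. Il2ra, Il34, Il20rb and Il6st were not called (adjusted p = 0.105, 0.0819, 0.231 and 0.178). Il6st was also lost without the day0RT mice (adjusted p = 0.0583) and Il18bp without the day3C mice (-0.29, adjusted p = 0.123). With promoter peaks only, Il1rap was at -0.08, adjusted p = 0.83, Il6st at -0.11, adjusted p = 0.635, Il6ra at -0.26, adjusted p = 0.131 and Il10rb at 0.18, adjusted p = 0.435.

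APC1 and APC2 differed in their IL-1 receptors. In 18 mice, 4 members had enough counts to be tested and 3 were called, 2 higher and 1 lower in APC1 (61.0% of the 669 genes tested were called, 30.0% higher and 30.9% lower). The decoy Il1r2 was higher in APC1 in 18 of 18 mice, at 299 ± 95.3 against 156 ± 62.3 CPM (0.85, SE 0.14, adjusted p = 4.8e-09). The signalling receptor Il1r1 was lower in APC1 in 16 of 18 mice, at 203 ± 89.8 against 317 ± 58.3 CPM (-0.38, SE 0.14, adjusted p = 0.00865). Il6ra had 285 ± 120 against 244 ± 106 CPM (0.40, SE 0.14, adjusted p = 0.00647) and a DESeq2 adjusted p of 0.0984. Without the day3C mice 2 members could be tested, and Il1r1 (adjusted p = 0.103) and Il6ra (adjusted p = 0.0747) were not called. In libraries of at least 30 nuclei the difference was 0.75 for Il1r2 (adjusted p = 0.069) -0.04 for Il1r1 (adjusted p = 0.94) and 1.06 for Il6ra (adjusted p = 0.0173). Il1r1 was at -0.15, adjusted p = 0.627 and Il6ra at 0.83, adjusted p = 0.00137 in nuclei with at least 2000 entries, and Il6ra at 0.17, adjusted p = 0.541 without a filter on low counts.

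Between macrophages and dendritic cells, 7 of 8 members tested in 17 mice were called, 3 higher and 4 lower in macrophages (60.9% of all genes tested were called, 32.3% higher and 28.6% lower). The IL-17 receptor chain Il17ra (252 ± 69.6 against 105 ± 69.2 CPM; 1.09, SE 0.14), Il16 (326 ± 71.3 against 155 ± 49.7 CPM; 1.06, SE 0.13) and Il6ra (0.66, SE 0.13) were higher in macrophages. Il2ra was lower in macrophages in 17 of 17 mice, at 128 ± 34.8 against 359 ± 74.8 CPM (-1.37, SE 0.12, adjusted p = 2.5e-22). Il15 was lower in 17 of 17 mice, at 112 ± 48.1 against 277 ± 76 CPM (-1.01, SE 0.13, adjusted p = 4.9e-12). The IL-21 receptor Il21r (-0.68, SE 0.12) and Il4i1 (-0.57, SE 0.14) were lower as well. Il16 and Il4i1 were not tested with the peaks that count for no other gene.

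CD8 T cells had higher levels than CD4 T cells at Il2rb and at receptor chains for IL-12 and IL-18. In 20 mice, 23 members were tested and 11 called (18.9% of all genes), 8 lower in CD4 (11.1%) and 3 higher (7.78%). Il2rb had 23.3 ± 19.2 against 98 ± 17.7 CPM (-1.90, SE 0.12, adjusted p = 3.0e-54), lower in CD4 in 19 of 20 mice. Il18r1 was lower in CD4 in 20 of 20 mice (-0.51, SE 0.07, adjusted p = 3.6e-10). Il12rb1 (-0.55, SE 0.12), Il20rb (-0.45, SE 0.07), Il21r (-0.44, SE 0.06), Il10rb (-0.43, SE 0.09), Il1rap (-0.43, SE 0.10) and Il12rb2 (-0.30, SE 0.08) were lower too. Higher in CD4 were Il2ra (227 ± 90.9 against 156 ± 35.9 CPM; 0.36, SE 0.07), the IL-4 receptor Il4ra (0.27, SE 0.07) and Il6ra (0.20, SE 0.04). In nuclei with at least 2000 entries Il2ra was at 0.25, adjusted p = 0.101, Il12rb2 at -0.31, adjusted p = 0.0908 and Il10rb at -0.10, adjusted p = 0.693, and with promoter peaks only Il21r was at -0.11, adjusted p = 0.696.

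B cells and CD4 T cells differed at 18 of 24 members tested in 20 mice (52.8% of all genes were called), 9 higher in B cells (27.0%) and 9 lower (25.8%). Il5ra led the first, with 164 ± 33 against 18.5 ± 12.8 CPM (2.91, SE 0.11, adjusted p = 6.6e-100), followed by Il12a (2.14, SE 0.12), Il4i1 (2.05, SE 0.09) and both chains of the IL-10 receptor, Il10rb (1.35, SE 0.07) and Il10ra (0.98, SE 0.09), each of the 5 higher in 20 of 20 mice. Il12rb1 (0.49, SE 0.11), Il3ra (0.38, SE 0.09), Il21r (0.33, SE 0.06) and Il11ra1 (0.19, SE 0.06) were higher by less. All peaks of Il4i1 also count for another gene. On the CD4 side Il20rb, a chain of the receptors for IL-19, IL-20 and IL-24, had 8.62 ± 3.8 against 144 ± 39.5 CPM (-3.57, SE 0.11, adjusted p = 1.9e-139), and Il12rb2, a chain of the IL-12 receptor, had 6.98 ± 4.39 against 108 ± 38.9 CPM (-3.46, SE 0.12, adjusted p = 1.7e-108). Il7r (-2.82, SE 0.09), Il18r1 (-2.73, SE 0.11), Il6ra (-1.81, SE 0.05), Il6st (-1.67, SE 0.07), Il2ra (-0.60, SE 0.06) and Il27ra (-0.28, SE 0.10) were lower in B cells as well. The Il27ra call did not hold in every alternative that tested it. Il1rap (-0.28, SE 0.11) was not called without the day1C or without the day3CL mice (adjusted p = 0.067 and 0.114). In nuclei with at least 2000 entries Il21r was at 0.15, adjusted p = 0.26, Il11ra1 at 0.12, adjusted p = 0.29 and Il3ra at 0.29, adjusted p = 0.0757.

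**Figure D3:**
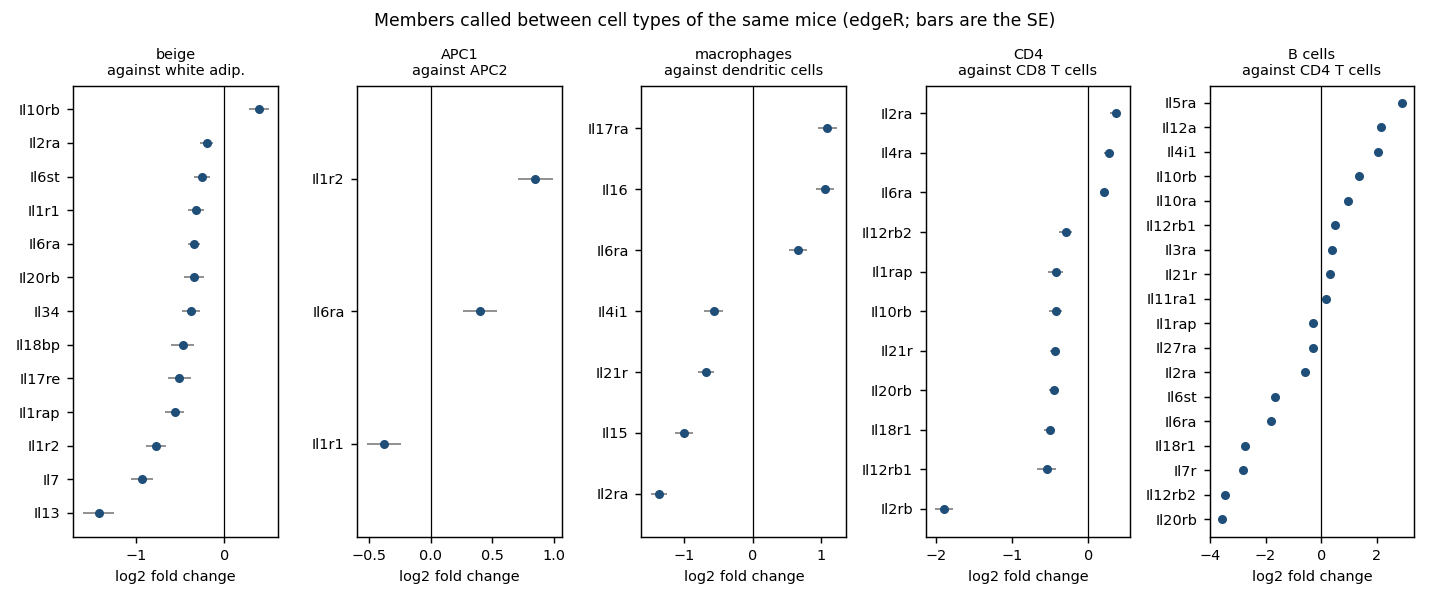
Log2 fold change (x axis, first cell type over second, points with the SE as bars) of the members called in each of the 5 pairs of cell types. Il13 has the lowest value in beige against white adipocytes (-1.42), and Il5ra (2.91) and Il20rb (-3.57) are the extremes of B against CD4 T cells.

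Of 34 listed partners of the receptors (Jak, Stat, Irak, Socs and related genes), 6 of 23 tested were called between beige and white adipocytes (30.4% of all genes were called). Of these, 1 was higher and 5 lower (15.0% and 15.4% of all genes), with the shared receptor chain Csf2rb at -0.82, SE 0.12. Between B and CD4 T cells 7 of 26 were higher and 12 lower in B cells (27.0% and 25.8% of all genes), with Lifr at 2.52, SE 0.12 and the feedback inhibitor Socs3 at -1.11, SE 0.09. Between CD4 and CD8 T cells 3 of 21 were higher and 3 lower (7.78% and 11.1% of all genes), with Stat4, which carries IL-12 signals, at -0.52, SE 0.05. In the other pairs 1 of 1 (Jak1, lower in APC1) and 2 of 4 (Irak2 higher and Jak2 lower in macrophages) were called, against 61.0% and 60.9% of all genes.

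Few members were called between treated mice and day 0 within a cell type. In 10 cell types 84 comparisons were possible, 76 with day 0 and 8 of CL with cold, and 1785 tests of 53 members gave 10 calls on 7 members, 0.56% of the tests, where 0.824% of all gene tests were called. At an unadjusted p below 0.05 there were 183 member tests (10.3%, against 9.68% of all gene tests). VEC and VSMC had too few mice for a comparison. DESeq2 made 1 of the 10 calls and gave no adjusted p for 328 member tests. Among these were the calls on Il5ra and Il31ra in B cells at day7CL and on Il18bp in white adipocytes at day3C. None of the 10 calls held in every fit that left out 1 mouse, and the same 3 day0RT mice enter each comparison with day 0. In 9 of the 10 calls the values of treated and day 0 mice did not overlap. The share of all genes without such an overlap was not counted, and the calls rest on the same values. The lack of overlap given below is thus a description.

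White adipocytes gave 6 of the calls, among 42 members tested, and 3 of these were on Il17rc, a chain of the receptor for IL-17A and IL-17F. Its level was 196, 175 and 185 CPM in the day0RT mice, 159, 151 and 121 CPM in day1C, 139, 137 and 145 CPM in day3C and 136, 127 and 143 CPM in day7C mice. All 9 cold mice lay below all day0RT mice. With CL it was 232, 121 and 147 CPM in day1CL, 152, 141 and 147 CPM in day3CL and 128, 136 and 143 CPM in day7CL mice. The CL mouse at 232 CPM rested on 8 entries from 23 nuclei, and the other CL mice lay below day 0. Over the cold groups the log2 fold change was -0.40, SE 0.11, edgeR adjusted p = 0.0462 (1.27% of all genes called), over the CL groups -0.39, SE 0.11, edgeR adjusted p = 0.0222 (5.84% called) and at day7CL -0.47, SE 0.13, edgeR adjusted p = 0.0153 (6.74% called). The peak over the gene start (mm10 chr6:113471223-113471892), the single peak that counts for no other gene, went from 38 CPM at day 0 (33.4 to 44.7) to 15.5 CPM (6.15 to 23.4) in the cold and to 18.9 CPM at day7CL. With this peak alone the log2 fold change was -1.04, adjusted p = 0.00925 in the cold and -0.88, adjusted p = 0.0149 with CL. In nuclei with at least 2000 entries it was -0.29, adjusted p = 0.286 in the cold and -0.29, adjusted p = 0.173 with CL. With promoter peaks only it was -0.57, adjusted p = 0.119 in the cold, -0.44, adjusted p = 0.165 with CL and -0.54, adjusted p = 0.108 at day7CL.

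The Il17rc calls turned on single mice. That at day7CL was lost without day0RT replicate 1 or 3 or day7CL replicate 1 (adjusted p from 0.0681 to 0.201), and that over the CL groups without day0RT replicate 1 or 3 or day1CL replicate 3 (adjusted p from 0.0814 to 0.131). That over the cold groups was lost without any 1 of 13 mice, namely the day0RT mice, day1C replicate 3, day3C replicates 1 and 2, day7C replicates 1 and 2, day1CL replicates 2 and 3, day3CL replicates 2 and 3 and day7CL replicate 2 (adjusted p from 0.0509 to 0.239), while the fold change stayed between -0.44 and -0.37. Over the cold groups it was also lost with the replicate number as a block (-0.40, adjusted p = 0.0565). In the cold the summed macrophage markers in white adipocytes (5 of 5 with a peak) were at 45.1 to 72.1 CPM against 32.1 to 44.7 CPM at day 0, and at day7CL at 46.3 to 63.5 CPM against 32.1 to 44.7 CPM, with the dendritic markers at 120 to 128 CPM against 95.5 to 115 CPM. Their part in the result was not tested.

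Il18bp, whose product neutralises IL-18, was higher in white adipocytes at day 3 of cold. It stood at 31, 33.5 and 35.9 CPM in day0RT and 65, 80.9 and 46.2 CPM in day3C mice (0.86, SE 0.20, edgeR adjusted p = 0.0132; 1.11% of all genes called), without overlap. The day7C mice were at 56.7, 57.1 and 59.5 CPM, above day 0 and not called. With CL it was not called either, at 56.2, 55.6 and 41.1 CPM in day3CL and 49.1, 57 and 30.2 CPM in day7CL mice. The log2 fold changes were 0.55 and 0.49 there, and 0.11 at day1C and 0.21 at day1CL. CL against cold was at -0.16, SE 0.12, edgeR adjusted p = 0.524. The peak centred 404 bases inside the start (chr7:102018057-102018515) went from 3.66 CPM at day 0 (2.47 to 4.78) to 19.8 CPM (15 to 26.4) in day3C, on 5 and 79 entries. The call was lost without any 1 of the day0RT mice or day3C replicate 1 (adjusted p from 0.0522 to 0.129). In day3C white adipocytes the macrophage markers (5 of 5) were at 53.8 to 72.1 CPM against 32.1 to 44.7 CPM, the skeletal muscle markers (6 of 6) at 157 to 206 CPM against 117 to 129 CPM and the progenitor markers (5 of 5) at 399 to 430 CPM against 443 to 458 CPM at day 0. Their part in the result was not tested.

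The other 2 calls in white adipocytes were Il17rb and the uncertain Il11ra1. Il17rb, a receptor chain for IL-25, was at 86, 101 and 94 CPM in day0RT and 61.5, 62 and 69.1 CPM in day3CL mice (-0.50, SE 0.16, edgeR adjusted p = 0.0461; 4.37% called), without overlap. Il11ra1 was at 320, 246 and 282 CPM in day0RT and 219, 218 and 228 CPM in day7CL mice (-0.36, SE 0.12, edgeR adjusted p = 0.0424), and with the peaks of no other gene it was -0.44, adjusted p = 0.111. With the replicate number as a block it was -0.35, adjusted p = 0.0635. At day7C neither was called, with Il17rb at -0.47, edgeR adjusted p = 0.176 and Il11ra1 at -0.34, edgeR adjusted p = 0.141. Among the CL groups, Il17rb was at -0.22 at day7CL and Il11ra1 at -0.11 at day3CL, also not called. Il17rb was lost without any 1 of the day0RT or day3CL mice or day7CL replicate 2 (adjusted p from 0.0506 to 0.234) and with promoter peaks only (-0.33, adjusted p = 0.437), and Il11ra1 without day0RT replicate 1 or 3, day3CL replicate 2 or day7CL replicate 1 or 2 (adjusted p from 0.05 to 0.242). In day3CL white adipocytes the macrophage markers were at 47.2 to 57.8 CPM against 32.1 to 44.7 CPM, the adipocyte markers at 1430 to 1530 CPM against 1590 to 1930 CPM, the mural markers at 208 to 230 CPM against 153 to 205 CPM and the T cell markers at 66.9 to 69.6 CPM against 73 to 83.6 CPM at day 0. Their part in the result was not tested.

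In B cells, where 30 members were tested, Il5ra and Il31ra were called. Il5ra was at 120, 132 and 143 CPM in day0RT and 200, 191 and 210 CPM in day7CL mice (0.61, SE 0.12, edgeR adjusted p = 8.3e-04; 1.36% of all genes called), without overlap. The day7C mice stood at 183, 227 and 166 CPM, above day 0 and not called. The exon peak printed above went from 31.1 CPM at day 0 (18.8 to 41.4) to 58.5 CPM (48.3 to 66) at day7CL. The call was lost without day0RT replicate 1 or day7CL replicate 1 (adjusted p from 0.053 to 0.0688), in nuclei with at least 2000 entries (0.57, adjusted p = 0.192) and with promoter peaks only (0.52, adjusted p = 0.265).

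Il31ra, a receptor chain for IL-31, a cytokine known for itch, was higher in B cells at day1C and at day7CL. It was at 38.1, 35.3 and 31.6 CPM in day0RT, 55.8, 84.9 and 59 CPM in day1C (0.88, SE 0.22, edgeR adjusted p = 0.0253; 0.574% called) and 58.4, 107 and 40.2 CPM in day7CL mice (0.91, SE 0.21, edgeR adjusted p = 0.00624). Both groups lay above day 0, and 1 day7CL mouse stood well above the rest. In the other treated groups Il31ra was not called, at 0.29 in day1CL, -0.02 in day3C, -0.13 in day7C and -0.44 in day3CL mice. Over the cold groups it was at 0.24, edgeR adjusted p = 0.731, and over the CL groups at 0.25, edgeR adjusted p = 0.579. Most of the difference lay in 1 peak within the gene (chr13:112578083-112578446), which went from 22.4 CPM at day 0 (19.6 to 25.9) to 49 CPM (39.3 to 64.3) at day1C and to 55.8 CPM at day7CL, and which had entries in all 12 cell types, at 17.3 to 48.5 CPM. The day1C call was lost without day0RT replicate 1 or 3 or day1C replicate 2 or 3 (adjusted p from 0.0632 to 0.346) and with the replicate number as a block (0.79, adjusted p = 0.0572), and the day7CL call without day0RT replicate 3 or day7CL replicate 2 (adjusted p from 0.0698 to 0.239). Without day7CL replicate 2 the log2 fold change at day7CL was 0.58, adjusted p = 0.239. In nuclei with at least 2000 entries it was 0.82, adjusted p = 0.827 at day1C and 0.61, adjusted p = 0.618 at day7CL. In day1C B cells the adipocyte markers (5 of 5) were at 219 to 230 CPM against 167 to 204 CPM and the beige markers (4 of 4) at 52.8 to 65 CPM against 25.9 to 45.8 CPM at day 0. Their part in the result was not tested.

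In CD8 T cells, where 31 members were tested, Il6ra was lower at day 1 of CL. It stood at 475, 646 and 529 CPM in day0RT and 339, 384 and 244 CPM in day1CL mice (-0.61, SE 0.13, edgeR adjusted p = 0.0175; 0.145% of all genes called), without overlap, and at 468, 439 and 401 CPM in day7CL mice. The lowest mouse rested on 7 entries from 33 nuclei. The peak farthest from the start of the gene (chr3:89863646-89864523) went from 91.1 CPM at day 0 (72.2 to 112) to 34.3 CPM (25.6 to 42.3) at day1CL. The call was lost without day0RT replicate 2 or 3 or day1CL replicate 1 (adjusted p from 0.0593 to 0.376), and it was -0.37, adjusted p = 0.928 in nuclei with at least 2000 entries and -0.90, adjusted p = 0.184 with promoter peaks only. In day1CL CD8 T cells the macrophage markers (5 of 5) were at 34.9 to 60 CPM against 28 to 28.1 CPM and the skeletal muscle markers (6 of 6) at 69.7 to 77.6 CPM against 56.2 to 58.3 CPM at day 0. Their part in the result was not tested.

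**Figure D4:**
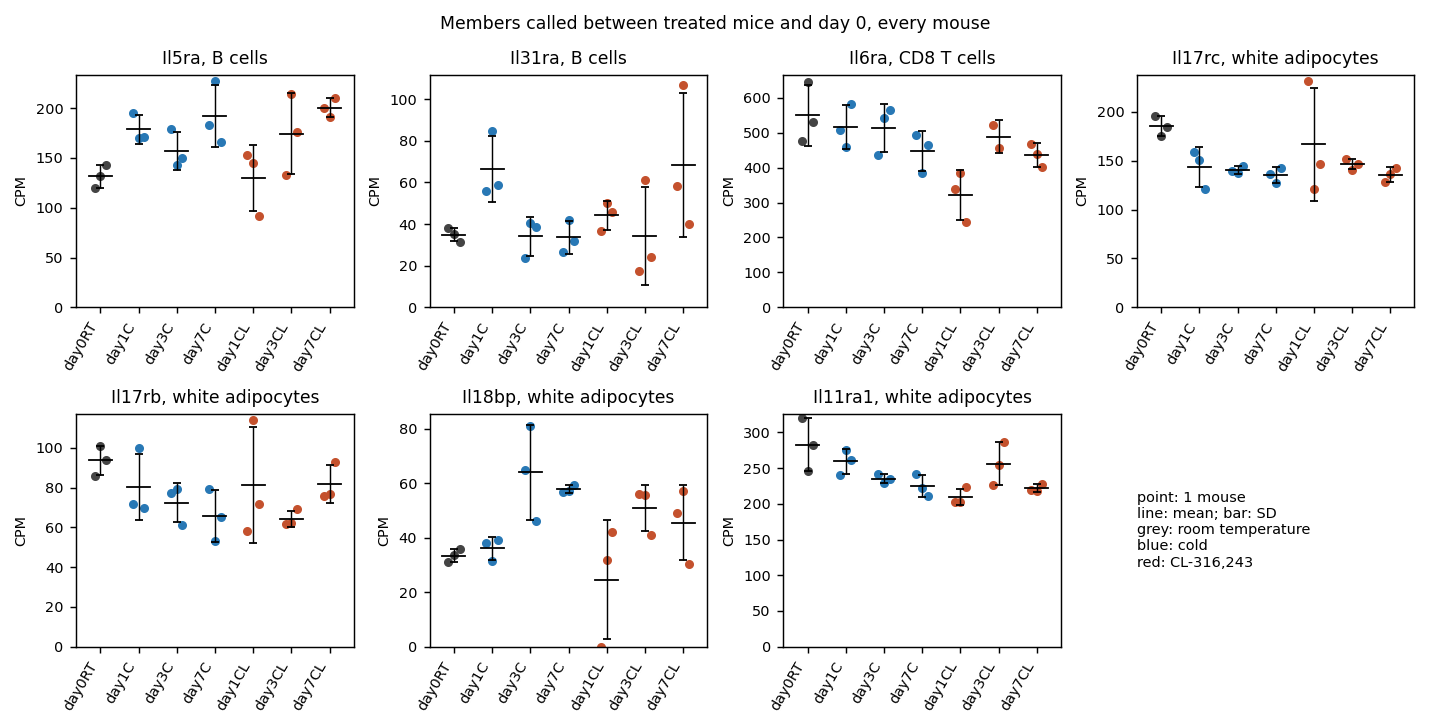
CPM (y axis, from 0) of the 7 members called between treated mice and day 0, in the cell type of the call, for every mouse with a library (points) in the 7 groups (x axis), with the group mean and SD. Il17rc in white adipocytes lies at 175 to 196 CPM at day 0 and below that in each of the 9 cold mice, and 1 day1CL mouse stands above at 232 CPM.

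In the other 7 cell types (APC1, APC2, beige adipocytes, macrophages, dendritic cells, CD4 T cells and T cells), 57 of the comparisons, each of 7 to 24 members, gave 0 calls with edgeR and 0 with DESeq2 (0.0801% of all gene tests were called), and 58 of 858 tests had an unadjusted p below 0.05. CL against cold gave 0 calls in 8 comparisons with edgeR and 0 with DESeq2 (0.802% of all gene tests), and 16 of 185 tests had an unadjusted p below 0.05. Members described above for their levels in white adipocytes were not called over the cold groups, namely Il33 (-0.17, SE 0.20, adjusted p = 0.795), Il13 (-0.23, SE 0.20, adjusted p = 0.698), Il7 (-0.25, SE 0.15, adjusted p = 0.517) and Il34 (0.37, SE 0.15, adjusted p = 0.236). Of the partners, 1 of 1497 tests was called, where 0.824% of all gene tests were. Socs3 was lower with CL than with cold in white adipocytes (-0.47, SE 0.12, edgeR adjusted p = 0.012; 3.41% of all genes called).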

How the data were processed

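Nuclei of iWAT from 21 mice had been prepared by combinatorial indexing and sequenced as 4 libraries that each held all groups, so mouse, group and cell type were taken from the deposited annotation of the nuclei. Per the study's methods the authors aligned reads to mm10 with Bowtie2, removed low-quality nuclei and doublets by a doublet score, called peaks and clustered the nuclei. The deposited matrix holds counts of 0 or 1 per peak and nucleus (65588856 entries of 1 and 145 stored zeros), with no normalization. The other deposited columns hold names.

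Peaks were given to GENCODE genes (body plus 2000 bases upstream), counting for every gene they overlap, and entries were summed per mouse and cell type in libraries of at least 10 nuclei. edgeR 4.0.16 in R 4.3.3 (TMM, minimum count 10, minimum total 15, proportion 0.7, prior count 2) tested each comparison over all genes, with a threshold of 0.05 on the adjusted p. All 7 groups entered 1 fit per cell type. DESeq2 1.42.0 was an alternative. Simulated counts with known changes were fitted with edgeR for day7CL against day 0 in white adipocytes and for beige against white adipocytes. DESeq2 was not run on simulated counts. The replicate is the mouse. Depth per library limits precision, and SDs include counting error.

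Named are members called in a treated comparison, the largest called differences of each pair with at least 10 counts per library, the 3 highest members of a cell type and a list by role. Single peaks within called genes were chosen after their values were seen. Members and lists were chosen with earlier results of these data known. Alternatives changed the tool, the filter, the peaks, the scaling, the nuclei or the block, or left out each mouse or group.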

Additional observations from a re-analysis of the deposited data

Results flagged for a closer look

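In 3 cases a member called in 1 cell type lay on the other side of day 0 in every treated mouse of a second cell type. The difference between the cell types was not tested in any of them. The share of all called genes with such a case was not counted, so the cases are a description. Il18bp, higher at day3C in white adipocytes (64 against 33.5 CPM at day 0), had a mean of 17.5 CPM in day3C and 52.5 CPM in day0RT beige adipocytes, on 17 and 7 entries. Il17rb, lower at day3CL in white adipocytes (64.2 against 93.5 CPM), had 46.3 CPM in day3CL, where 2 mice had a library, and 20.4 CPM in day0RT mice in APC2, on 6 and 3 entries. Il31ra, higher at day7CL in B cells (68.5 against 35 CPM), had 55.1 CPM in day7CL and 80.4 CPM in day0RT macrophages, on 16 and 27 entries.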

How the results depend on the processing

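No named difference changed its direction under an alternative that tested it. Between treated mice and day 0 there were 10 calls. DESeq2 made 1 call, among the 10, and gave no adjusted p for some of the others. With promoter peaks only there were 5, of which 1 was among the 10 and 4 were on Il20rb in white adipocytes. With nuclei of at least 2000 entries there were 4, of which 2 were among the 10. When 1 mouse was left out there were from 1 call (without day0RT replicate 3, among the 10) to 12 (10 among the 10), and without day0RT replicate 1 there were 4, of which 2 were among the 10. With the replicate number as a replicate block there were 7, all among the 10. Per the study the batches of the experiment were run independently, and whether the replicate number is the batch is not stated. Same-numbered mice of different groups had correlations of -0.12 to 0.15 in white adipocytes and -0.13 to 0.13 in B cells. In CD8 T cells they were -0.05 to 0.07. Of these, 1 of 63, 2 of 63 and 0 of 57, in that order, were above 0.1. In libraries this sparse, low correlations cannot tell whether same-numbered mice share a batch. Without a filter on low counts more members were tested in the pairs. Calls went from 13 of 29 to 21 of 68 for beige against white adipocytes and from 3 of 4 to 16 of 67 for APC1 against APC2. They went from 7 of 8 to 19 of 68 for macrophages against dendritic cells and from 18 of 24 to 42 of 68 for B against CD4 T cells. With promoter peaks only they were 4 of 15 and 11 of 14 in the first and last of these pairs, and no member was tested in the others. For CD4 against CD8 T cells they were then 5 of 13 in place of 11 of 23. With nuclei of at least 2000 entries they were 6 of 13 for CD4 against CD8 and 8 of 14 for B against CD4 T cells. Beige against white adipocytes gave 8 of 27 without the day7C mice, and APC1 against APC2 gave 0 of 2 without the day3C mice. The shares of all genes called under the alternatives are not given. Of 52 calls in the pairs, 32 held in every alternative that tested them. Members highest in dendritic cells numbered 10 to 14. In the pairs, the settings with fewer peaks tested fewer members. Those with fewer nuclei tested fewer, as many or more members, depending on the pair. For APC1 against APC2 they were 13 in place of 4 in libraries of at least 30 nuclei. The cause of the shifts was not tested. Depth limits the small clusters, where 7 to 16 members could be tested in dendritic cells, APC1, APC2, beige adipocytes and macrophages.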
